A study of Mus musculus with 52 samples.

Results

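F-box proteins are the substrate-binding subunits of SCF ubiquitin ligases, and 72 protein-coding mouse genes of this class were described here in the gastrocnemius muscle of aged mice. Members were all rows of the deposited count table whose Ensembl identifier belongs to a protein-coding symbol starting with Fbxl, Fbxo or Fbxw, leaving out Fbxo21, Fbxo30, Fbxo31, Fbxo32 and Fbxo40, the F-box genes most often studied in muscle wasting. They comprised 18 Fbxl, 31 Fbxo and 23 Fbxw genes of 55487 identifiers in the table, and no measured value entered the choice.

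In an SCF ligase the scaffold Cul1 carries the RING protein Rbx1 at its far end and the adaptor Skp1 at the other, and Skp1 holds the F-box protein that picks the substrate. The symbols name the part of the protein outside the F-box: leucine-rich repeats in Fbxl, WD40 repeats in Fbxw, and other or no known domains in Fbxo. Each F-box protein recognises its own set of substrates, often only after phosphorylation or glycosylation, so that a cell's set of F-box proteins sets which proteins the ligase marks for the proteasome.

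The series measured total RNA of gastrocnemius from male C57BL/6 mice aged 22 to 24 months, with 52 libraries in 13 groups of 4. Ambulatory mice on plain water formed the group AMB_W. Hindlimb unloading (HU), which takes the load off the hind limb muscles and causes wasting, and reloading for 7 d (RL7) or 14 d (RL14) after unloading were each combined with 4 drinks: water (W), metformin (M), leucine (L), or metformin with leucine (ML). Metformin is given in diabetes to lower blood glucose, while leucine activates mTORC1, a kinase complex that promotes protein synthesis. No ambulatory group with a drug and no young group was analysed here. Libraries carry the replicate number of their title (HU_W 2), each was taken as 1 mouse, and where the labels do not tie a library to its own animal the p-values measure the spread between libraries.

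Libraries held 15605044 to 32492548 counts. Levels are given as CPM, the gene's counts scaled to a common library total with TMM factors, or as RPKM, CPM per kilobase of exon, where genes are compared with one another. Differences are log2 fold changes with a standard error (SE) from edgeR's quasi-likelihood test of 16668 genes in 1 model of 13 group means, and a gene was called when its Benjamini-Hochberg adjusted p over those genes was under 0.05. Muscle fibre markers such as Acta1 and Ckm summed to at least 76740 CPM in each library, which fits the labelled tissue. Some libraries stood apart: Alb, a liver transcript, exceeded 16 CPM in 5 HU, 4 RL7 and 3 RL14 libraries, and RL14_ML 1 and RL14_ML 6 were known from earlier results to deviate. Fits without the liver-transcript libraries have smaller groups: HU_W, for example, kept only HU_W 3 and HU_W 4. The share of all genes called fell too, from 4.88% to 1.46% in RL7_W against HU_W. A call lost in these fits is therefore not read as an effect of liver transcripts. A 5.8S ribosomal RNA gene, which ribosomal RNA removal should deplete, had a median of 10.6 CPM in HU, 1.04 CPM in RL7 and 17.5 CPM in RL14 libraries, and mitochondrial genes took a median of 14.6%, 9.26% and 18% of counts.

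Fbxl2 and Fbxo10 carried the canonical E box CACGTG, the element bound by clock and Myc-family factors, in the 250 bases before a transcription start, and both windows are shown because the match sets them apart from the other members with an entry. Sequences are from RefSeq on GRCm38.p6, 5′ to 3′ on the gene's strand, with the match in capitals.
Fbxl2, chr9:114026752-114027001, minus strand: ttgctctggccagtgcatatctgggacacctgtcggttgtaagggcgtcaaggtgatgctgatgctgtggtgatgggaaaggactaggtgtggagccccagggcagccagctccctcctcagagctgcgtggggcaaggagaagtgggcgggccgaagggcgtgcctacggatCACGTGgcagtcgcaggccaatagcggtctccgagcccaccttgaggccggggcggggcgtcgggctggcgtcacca
Fbxo10, chr4:45084556-45084805, minus strand: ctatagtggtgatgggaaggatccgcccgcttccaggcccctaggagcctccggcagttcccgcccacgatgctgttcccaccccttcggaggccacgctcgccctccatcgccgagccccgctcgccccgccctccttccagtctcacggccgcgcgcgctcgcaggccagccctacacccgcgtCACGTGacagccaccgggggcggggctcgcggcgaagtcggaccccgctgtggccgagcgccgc

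The match began 77 bases before the start of Fbxl2 and 64 bases before that of Fbxo10, whose second annotated window overlaps the one shown and holds the same site. The table held 74 promoters of 54 members. CACGTG, a palindrome and so the same on both strands, was in 3 of the 74 (4.05%) against 6.02% of 32851 promoters. GTAAACA, the FoxO element, and TTATGTAA, the D box of the clock output factors, were sought on both strands and found in 0 of the 74, against 3.17% and 0.82% of all promoters. These are matches of letters in a short window and say nothing of binding.

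Most F-box genes outside the atrophy ligases were detected in muscle, over a wide range of levels. Of the 72 members, 48 passed the filter on low counts (16 Fbxl, 23 Fbxo and 9 Fbxw), 28 lay above 1 RPKM and 4 above 10 RPKM. Fbxo11, which forms a ligase for BCL6 and other regulators, had the highest level at 15.55 ± 3.01 RPKM (SD, n = 52). It was followed by Fbxl17, a quality-control factor for BTB-domain dimers, at 12.47 ± 1.27 RPKM (SD, n = 52) and by Fbxo3 at 11.54 ± 1.04. Fbxw11, the paralogue of Btrc that recognises phosphodegrons in β-catenin and IκB, stood at 9.53 ± 1.21 RPKM, and Fbxo9 at 8.9 ± 1.66. Fbxo11 exceeded Fbxl17 by about its own SD over libraries, while Fbxl17 and Fbxo3, and likewise Fbxw11 and Fbxo9, lay within their SDs of one another. Fbxw5 (6.74 ± 1.99) and Fbxo22 (5.96 ± 0.71) followed below these, and 15.4% of the exon bases of Fbxo22 overlap Nrg4 on the opposite strand.

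**Figure D1:**
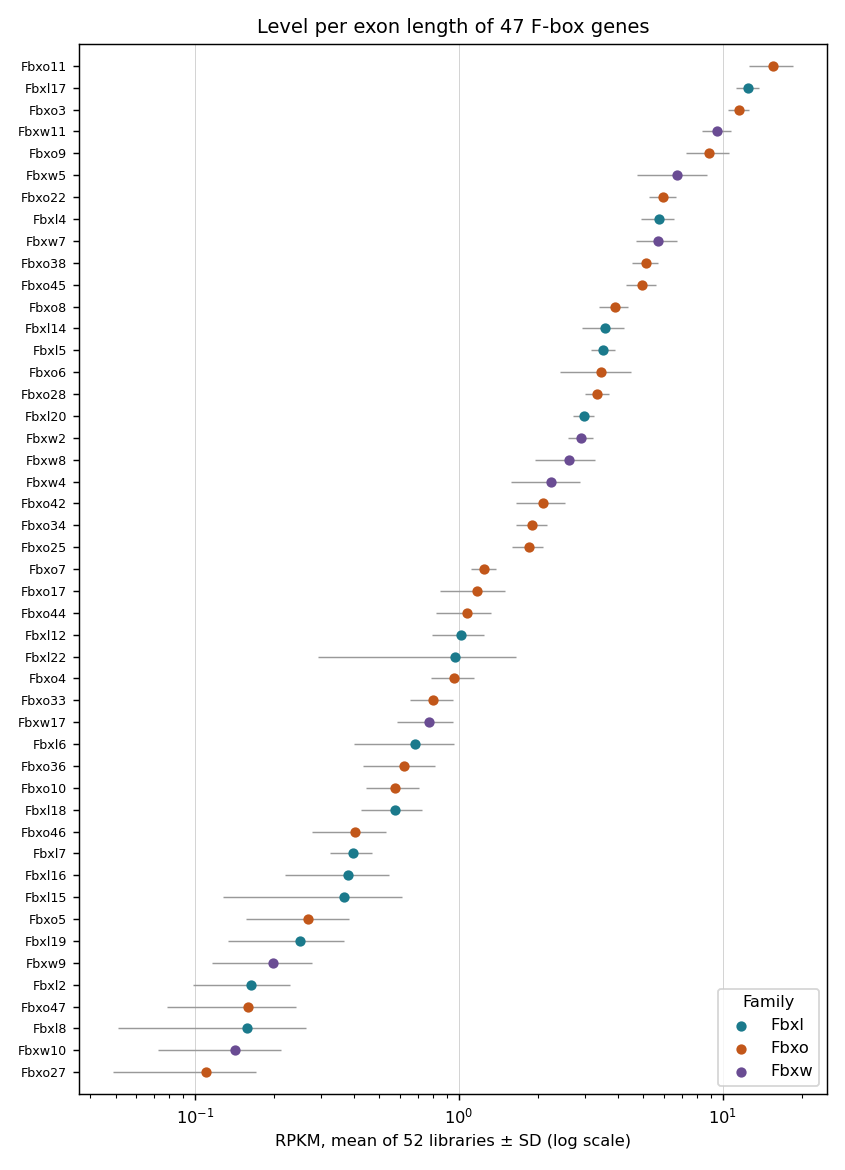
Level of 47 of the 48 F-box genes that passed the filter, as mean RPKM over 52 libraries (log axis) with bars of 1 SD and colours for the Fbxl, Fbxo and Fbxw families. Fbxo11 lies at the top at 15.55 RPKM and Fbxo27 at the bottom at 0.11 RPKM.

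A block of Fbxw genes had almost no counts. Fbxw13 to Fbxw28 without Fbxw17 lie in a cluster on the minus strand of chromosome 9 (GRCm38 chr9:109139447-109790670) that is known for expression in oocytes. Of its 14 members in the table, 9 had 0 counts in all 52 libraries, which allows up to 0.00293 CPM over the pooled libraries by a floor of 3 counts, and the 14 together had 14 counts. Fbxw17, which has a number in the same series but lies on chromosome 13, was read at 0.77 ± 0.19 RPKM (SD, n = 52). Outside the cluster, 10 members did not pass the filter. Fbxl21, which acts on the cryptochromes of the clock, had 261 counts in all, a level of 0.0522 RPKM. The brain-enriched Fbxo2 and Fbxo41 had 89 and 47 counts in all, and Fbxo43, an inhibitor of the anaphase-promoting complex in germ cells, had 3.

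Few of the 48 members varied much between groups. The ratio of the highest to the lowest group mean had a median of 1.52 and reached 4.16 for Fbxw10, a gene read at only 0.14 RPKM. It was under 1.5 for 23 members and over 2 for 11. The 11 were all at low levels, from 0.11 RPKM (Fbxo27) to 0.97 RPKM (Fbxl22), where noise widens the ratio. The lowest group mean fell in an unloaded group for 23 members and in a 7 d reloaded group for 12, while the highest fell in a 7 d reloaded group for 18 and in an unloaded group for 16. Neither the ratios nor these counts are given for all genes, so they are not read as particular to the members. In a test of the 13 groups at once (12 contrasts, edgeR), 17 of 48 members (35.4%) were called, against 40% of all genes tested. Ranked by p they began with Fbxw2 (adjusted p = 0.000122), Fbxo9 (0.00111), Fbxw5 (0.00272), Fbxo11 (0.00383) and Fbxo6 (0.00714). Without the 12 libraries with liver transcripts, 7 members were called in this test. The share of all genes is not given for that fit, so this drop is not read as particular to the members.

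**Figure D2:**
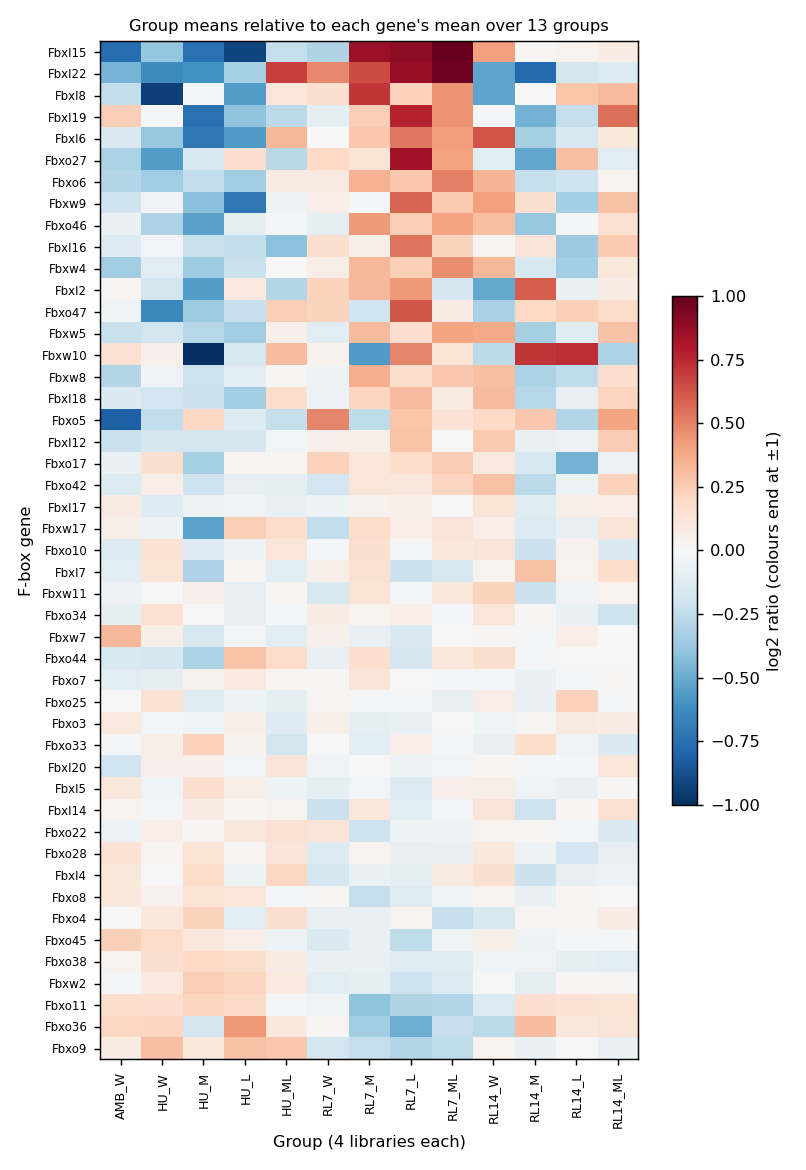
Heat map of 47 of the 48 F-box genes (rows, ordered by their change from unloading to 7 d of reloading) in 13 groups (columns), coloured by the log2 ratio of the group mean CPM to the gene's mean over groups; colours end at 1 and 2 of 611 values lie beyond. Of these genes, 18 have their highest mean in an RL7 group and 23 their lowest in an HU group.

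In unloading without a drug no F-box gene passed the test against ambulatory muscle. Of 48 members, 0 were called in HU_W against AMB_W with edgeR or with DESeq2, beside 2.78% of all genes, and 2 had an unadjusted p under 0.05. Fbxl20, which marks the synaptic vesicle protein RIM1 for degradation, was read at 34.42, 30.45, 28.97 and 31.37 CPM in AMB_W and at 38.2, 39.22, 34.7 and 37.2 CPM in HU_W. The groups did not overlap, but the log2 fold change of 0.25 ± 0.09 had an adjusted p of 0.143 (edgeR). Fbxl17, at -0.21 ± 0.11 on that scale (adjusted p = 0.366), went from 72.92 ± 6.19 to 62.84 ± 3.9 CPM (SD, n = 4), and the ranges overlapped. The log2 fold changes of the 48 ran from -0.67 ± 0.76 (Fbxl8) to 0.56 ± 0.44 (Fbxo5), with a median of 0.01 and a median SE of 0.20. With errors of this size the absence of calls does not show that levels were the same.

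The 3 unloaded groups with a drug gave 1 call in all against AMB_W, with 48 members tested in each. Fbxl20 was higher in HU_ML, where it was read at 38.33, 40.41, 42.43 and 36.77 CPM, by 0.34 on the log2 scale (adjusted p = 0.0369, edgeR); the 4 values lay above the highest ambulatory one. The call was lost when any 1 of 6 of the 8 libraries was left out and without the liver-transcript libraries. HU_M and HU_L had 0 calls against AMB_W, with 7 and 2 members at an unadjusted p under 0.05. All 3 comparisons use the same AMB_W libraries, and the shares of all genes called were 3.62% in HU_M, 3.74% in HU_L and 2.07% in HU_ML. DESeq2 called 3 members over these comparisons. Its share of all genes is not given there, so this count is not read as particular to the members.

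The clearest movement of the F-box genes was between unloading and 7 d of reloading. With the 4 drinks averaged, 16 libraries stood against 16, and 21 of 48 members were called, 13 higher and 8 lower at 7 d. This share of 43.8% lay below that of all genes, of which 52.7% were called (29.2% higher, 23.5% lower). Changes were small: 17 of the 21 were under 1.5-fold and 1 was over 2-fold. The families divided unevenly in the counts, with 7 Fbxl genes higher and 0 lower, 2 Fbxo genes higher and 7 lower, and 4 Fbxw genes higher and 1 lower. The split depends on the scaling: with RLE size factors 11 members were higher and 11 lower, and with DESeq2 11 and 12. In a bulk tissue, a change in a cell type's number and a change in RNA per cell cannot be told apart.

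Fbxo9, a ligase subunit that binds TTI1 and TEL2 and so acts on mTOR complexes, fell in the average over drinks and was called lower in 3 of the 4 drinks. With metformin the difference of -0.35 ± 0.14 was not called (adjusted p = 0.0552, edgeR), and the values overlapped (25.76 to 35.44 CPM in HU_M, 18.96 to 28.48 CPM in RL7_M). In HU_W it was read at 26.41, 41.83, 33.45 and 33.24 CPM, and in RL7_W at 22.75, 23.02, 25.73 and 25.02 CPM. The highest reloaded value lay below the lowest unloaded one. It was the sole member called in RL7_W against HU_W, at -0.48 ± 0.14 on the log2 scale (adjusted p = 0.035, edgeR), where 4.88% of all genes were called. DESeq2 called 2 members there, beside 7.64% of all genes. The Fbxo9 call was lost when HU_W 2, HU_W 3, HU_W 4, RL7_W 1 or RL7_W 2 was left out and without the liver-transcript libraries. The 16 HU libraries ran from 25.76 to 41.83 CPM with a median of 32.43, and the 16 RL7 libraries from 18.96 to 28.48 CPM with a median of 22.67. The averaged change was -0.48 ± 0.07 (adjusted p = 2.76e-07), and leaving out any of the 32 libraries kept it between -0.53 and -0.47 with an adjusted p of at most 9.62e-07. Fbxo9 lies at GRCm38 chr9:78081499-78109065 on the minus strand, with no other gene over its exons.

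Fbxw2, a WD40 protein of SCF ligases, had the smallest p of the members. The HU libraries ran from 27.66 to 34.41 CPM with a median of 31.01, and the RL7 libraries from 22.29 to 28.17 CPM with a median of 24.64, so that the 2 ranges met only at their ends. It fell by 0.30 ± 0.04 on the log2 scale (adjusted p = 4.82e-08, edgeR). In the water groups alone, the values of 29.44, 29.13, 29.21 and 30.05 CPM in HU_W and of 24.98, 24.55, 26.58 and 25.82 CPM in RL7_W did not overlap, but the difference of -0.21 ± 0.08 was not called (adjusted p = 0.127). In AMB_W it was read at 25.74 to 28.7 CPM, below the 4 HU_W values and overlapping those of RL7_W.

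Fbxo11 and Fbxo38 fell as well. Fbxo11 had a median of 74.3 CPM in HU (60.81 to 92.44) and of 58.41 CPM in RL7 (36.25 to 70.68), a change of -0.40 ± 0.08 (adjusted p = 5.55e-05, edgeR). Its lowest values came from RL7_M 4 at 36.25 CPM and RL7_L 5 at 44.53 CPM, while RL7_W stayed between 59.93 and 70.68 CPM. Fbxo38, known in T cells for marking the checkpoint receptor PD-1, had a median of 32.78 CPM in HU (25.92 to 37.46) and of 26.98 CPM in RL7 (23.89 to 29.82), a change of -0.25 ± 0.05 (adjusted p = 0.000115, edgeR). The other called members that fell were Fbxo45, which works with MYCBP2 at synapses (-0.21 ± 0.06), Fbxo28 (-0.14 ± 0.05), Fbxo8 (-0.17 ± 0.07) and Fbxo36 (-0.40 ± 0.15). The Fbxo8 call was lost without HU_L 5.

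**Figure D3:**
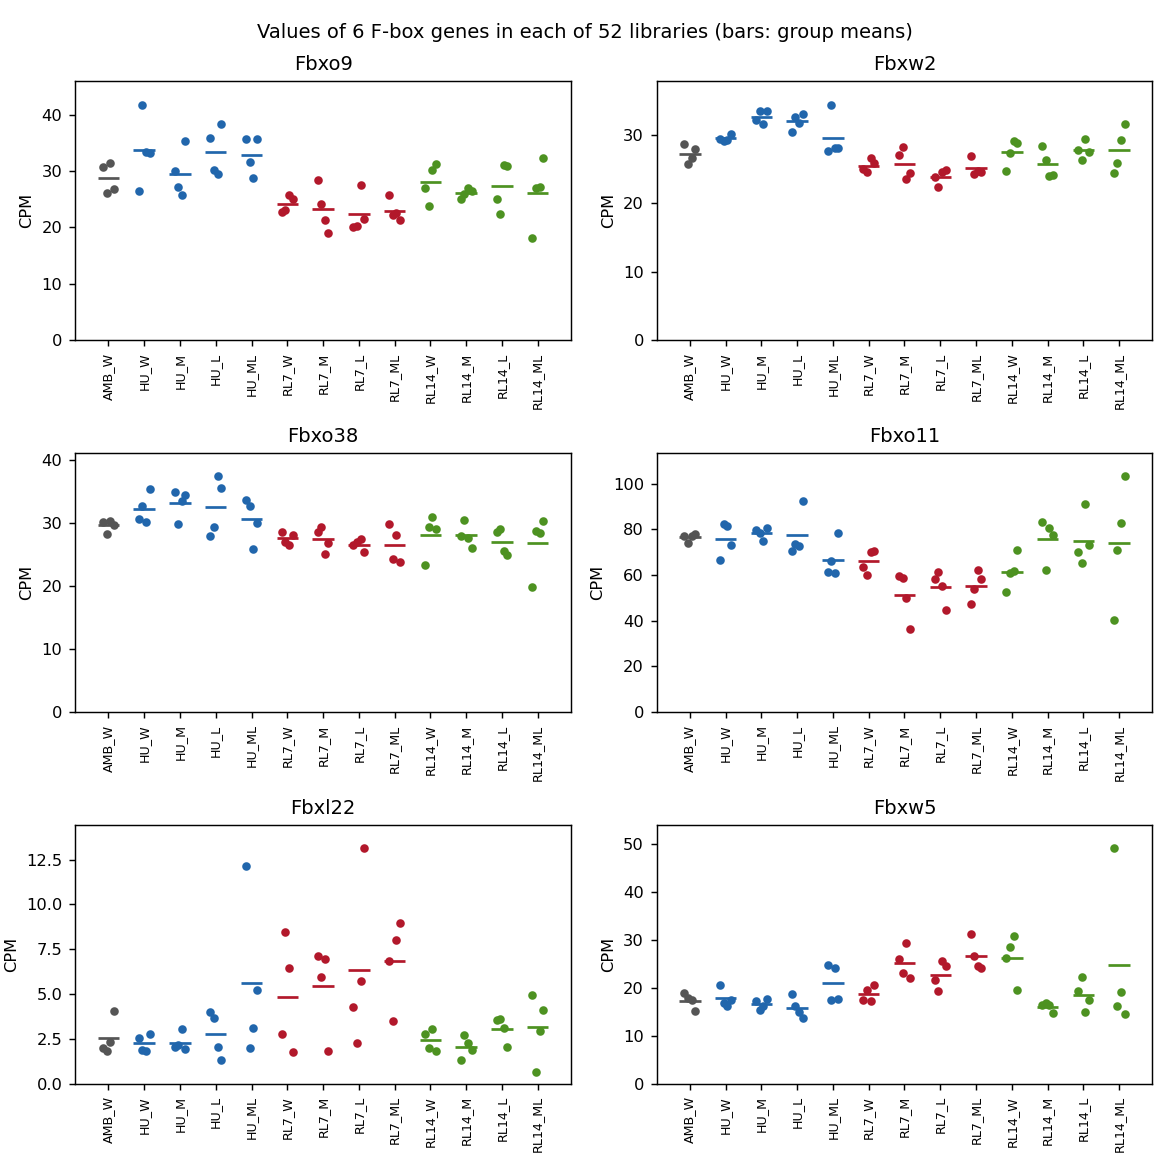
CPM of Fbxo9, Fbxw2, Fbxo38, Fbxo11, Fbxl22 and Fbxw5 in each of the 52 libraries (points) with group means (bars); vertical axes start at 0. The RL7 points of Fbxo9 and Fbxw2 sit below most HU points, Fbxl22 scatters from 1.74 to 13.14 CPM in RL7, and RL14_ML 1 stands alone for Fbxw5 at 49.18 CPM.

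Fbxl22, a cardiac and skeletal muscle F-box protein at the sarcomere Z-disc that acts on α-actinin and filamin C, was higher at 7 d in most libraries but not in all. It was read at 2.54, 1.9, 1.81 and 2.75 CPM in HU_W and at 2.79, 8.47, 6.43 and 1.74 CPM in RL7_W. Over the drinks the median rose from 2.35 CPM (1.33 to 12.16) to 6.2 CPM (1.74 to 13.14), a change of 0.96 ± 0.26 (adjusted p = 0.00165, edgeR). The unloaded maximum came from HU_ML 1, and 1 RL7_W and 1 RL7_M library stayed below 2 CPM. Without the liver-transcript libraries the change was not called. Of its exon bases 8.1% overlap Herc1 on the opposite strand.

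Fbxl15, which acts on the BMP pathway regulator Smurf1, had the largest called change but a low level. The HU libraries ran from 0.055 to 0.625 CPM with a median of 0.272, and the RL7 libraries from 0.266 to 1.39 CPM with a median of 0.671. The change was 1.17 ± 0.27 (adjusted p = 0.000352, edgeR). In RL7_W the values of 0.305, 0.562, 0.266 and 0.329 CPM overlapped those of HU_W (0.055 to 0.551 CPM), and the 12 RL7 libraries with a drug ran from 0.379 to 1.39 CPM. Cuedc2 covers 25.6% of its exon bases on the opposite strand, and since the strand setting of the counting was not given in the sources used here, its value is uncertain.

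The other members that rose included Fbxw5, which acts on the mTORC1 inhibitor TSC2 and on centriole duplication, and Fbxo6, which recognises N-glycans of misfolded glycoproteins. Fbxw5 had a median of 17.3 CPM in HU (13.72 to 24.68) and of 23.66 CPM in RL7 (17.28 to 31.27), a change of 0.38 ± 0.10 (adjusted p = 0.00152, edgeR). Fbxo6 had a median of 6.49 CPM in HU (4.46 to 10.08) and of 9.27 CPM in RL7 (6.33 to 13.56), a change of 0.52 ± 0.12 (adjusted p = 0.000263, edgeR). Fbxl19, a CpG-island binding protein, rose by 0.69 ± 0.18, Fbxl6 by 0.63 ± 0.17, Fbxo46 by 0.48 ± 0.14 and Fbxw4 by 0.44 ± 0.11. Smaller or less firm calls were Fbxw8 (0.28 ± 0.10), Fbxl18 (0.28 ± 0.10), Fbxw9 (0.51 ± 0.21), Fbxl2 (0.43 ± 0.19) and Fbxl12 (0.24 ± 0.10). Fbxw8 is the F-box protein of the CUL7 ligase that acts on IRS1. Without the liver-transcript libraries these calls and that of Fbxo46 were lost. Leaving out 1 library ended the call of Fbxl12 for 26, of Fbxl2 for 22 and of Fbxw9 for 15 of the 32 libraries. Opposite-strand genes cover 37.1% of the exon bases of Fbxl12 (Ubl5), 33.4% of Fbxw8 (Gm9754) and 21.4% of Fbxw4 (Gm17018), so these 3 are uncertain too.

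**Figure D4:**
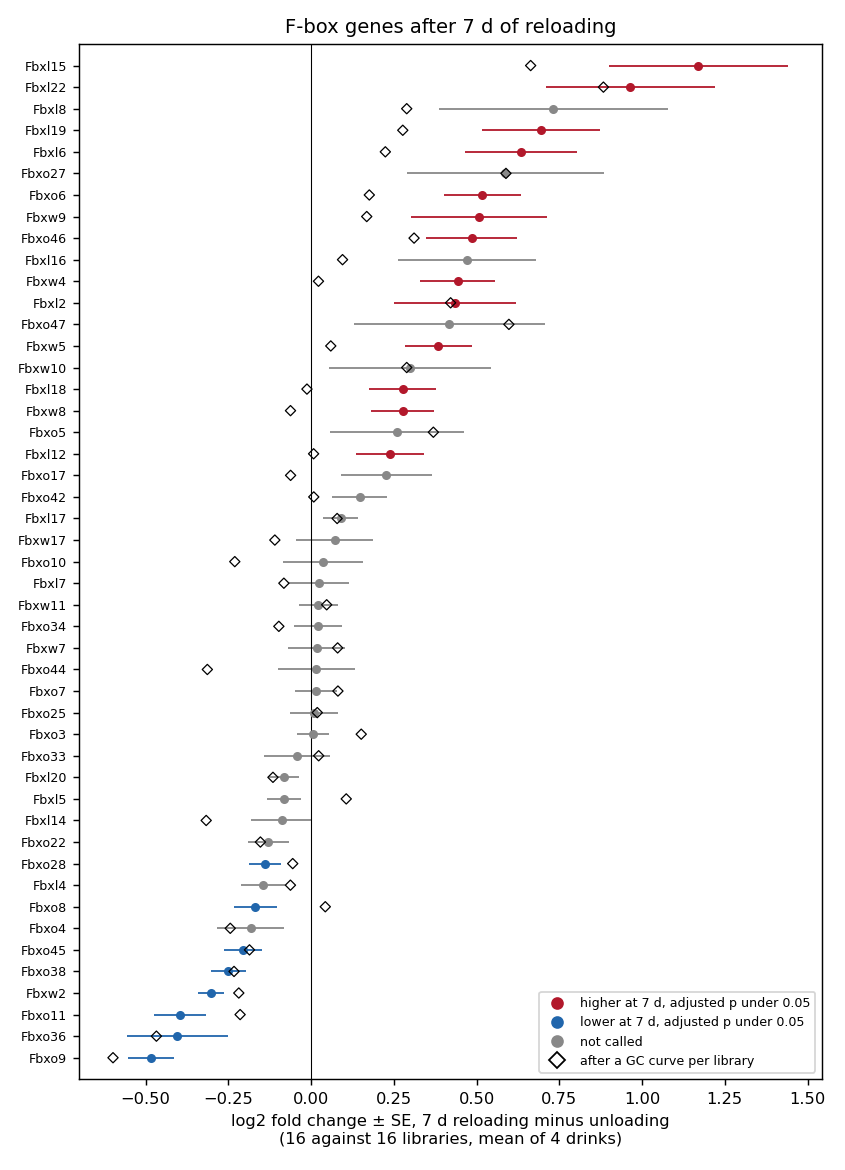
Log2 fold change with SE of 47 of the 48 F-box genes from unloading to 7 d of reloading, averaged over 4 drinks (16 against 16 libraries); red and blue points were called, grey points were not, and open diamonds give the change after a GC curve was removed from each library. Fbxl15 is highest at 1.17 and Fbxo9 lowest at -0.48, and most diamonds of red points lie nearer to 0.

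By number, calls within a drink came mostly from metformin and leucine. Of the 21 called members, 17 moved the same way in each of the 4 drinks and 4 in 3 of them. The average was taken from these same 4 changes, so agreement in sign with it is partly built in and adds no support. Sizes in water varied: Fbxl15 had 0.08 against 1.30 to 1.71 with a drug, while Fbxo9 had -0.48 against -0.35 to -0.58. Comparisons within a drink share no library. With metformin 14 members were called (10 higher, 4 lower), beside 29.6% of all genes (15.4% higher, 14.2% lower). With leucine 13 were called (7 higher, 6 lower), beside 28.6% (14.7% higher, 13.9% lower). With both drugs only Fbxo9 was called (-0.52 ± 0.14, adjusted p = 0.0195, edgeR), beside 5.91% of all genes. A test of whether the change differed between drinks (3 interaction terms, edgeR) called 0 of 48 members and 0.036% of all genes. Fbxw17 alone had an unadjusted p under 0.05 there (0.0223): with metformin it went from 2 to 3.3 CPM, at 0.72 ± 0.24 on the log2 scale (adjusted p = 0.0178). That Fbxw17 call was lost without HU_M 3, without RL7_M 1 and without the liver-transcript libraries, and the change was 0.45 after the GC curve (adjusted p = 0.16), 0.25 with the 5.8S gene (adjusted p = 0.853) and 0.36 with the mitochondrial share (adjusted p = 0.544). Without HU_L 5 the calls within drinks fell from 29 to 16, and without the liver-transcript libraries to 12. The share of all genes is not given for these totals, so the drops are not read as particular to the members.

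Members called higher were GC-rich. GC content of the longest coding transcript had a median of 57.7% (49.1 to 63.7) in the 13 that rose, of 47% (39.8 to 52) in the 8 that fell and of 49% in the 27 not called. The same held over all genes, with medians of 53.9% and 45.1% for genes that rose and fell. Spearman's rho between GC content and the log2 fold change was 0.622 across the 48 members and 0.466 across 16642 genes, a description of genes measured in the same libraries. Fbxo9, at 52%, had the highest GC content of the members that fell. After a GC curve was removed from each library, 16 members were called (5 higher, 11 lower), of which 9 were among the 21, beside 45.9% of all genes. Fbxo9 (-0.60), Fbxw2 (-0.22), Fbxo11 (-0.21), Fbxo38 (-0.23), Fbxo45 (-0.19), Fbxo36 (-0.47), Fbxl15 (0.66), Fbxl22 (0.88) and Fbxo46 (0.31) kept their calls, while Fbxw5 (0.06), Fbxw4 (0.02), Fbxo6 (0.18), Fbxl6 (0.22) and Fbxl19 (0.28) did not.

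**Figure D5:**
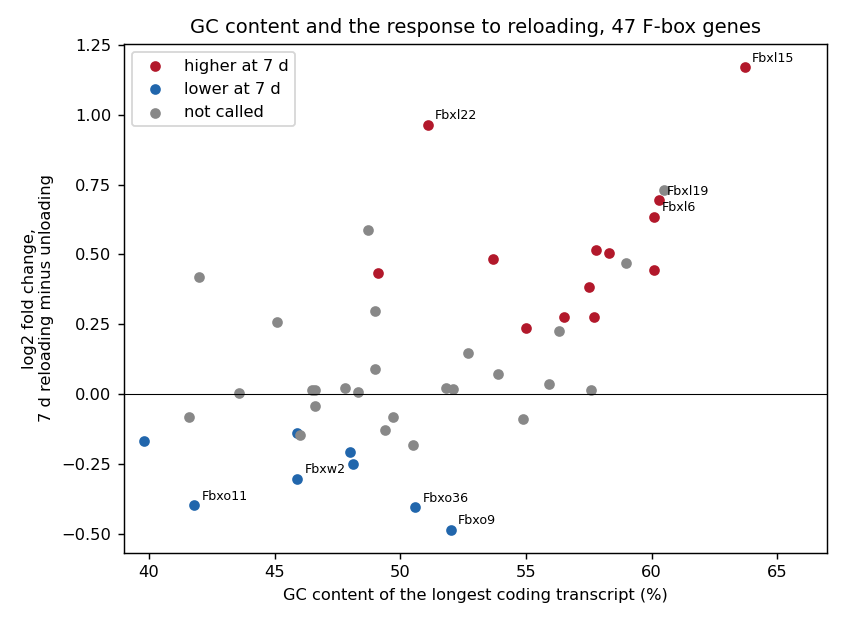
GC content of the longest coding transcript (horizontal, %) against the log2 fold change from unloading to 7 d of reloading (vertical) for 47 of the 48 F-box genes. Called members that rose (red) lie between 49.1 and 63.7% GC, and those that fell (blue) between 39.8 and 52%.

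Measures of the libraries themselves moved with the same contrast. The 5.8S gene ran from 2.07 to 32.8 CPM in HU and from 0.379 to 7.39 CPM in RL7, and mitochondrial genes from 11.2 to 24.1% and from 5.53 to 15.4% of counts. With the log2 level of the 5.8S gene in the model, 0 of 48 members and 2.48% of all genes were called in the averaged comparison, the Fbxo9 change was -0.21 (adjusted p = 0.529) and the Fbxw2 change -0.16 (adjusted p = 0.352). With the mitochondrial share in the model, 2 members and 19.3% of all genes were called, the members being Fbxw2 (-0.23, adjusted p = 0.00238) and Fbxo3, and the Fbxo11 change was 0.00. The part of these measures in the changes was not tested beyond these fits.

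Markers of other cell types moved in the same comparison. Of the listed markers, 5 of 6 endothelial, 5 of 6 macrophage, 4 of 5 fibroblast, 4 of 5 adipocyte, 2 of 5 Schwann cell and 3 of 3 tested proliferation genes were called higher at 7 d, and 5 of 5 red blood cell genes lower. The summed endothelial level ran from 126 to 209 CPM in HU and from 167 to 258 CPM in RL7, and the macrophage level from 17.6 to 69.5 and from 24.2 to 125 CPM. In the same order, fibroblast markers ran from 241 to 490 and from 353 to 659 CPM, adipocyte markers from 74.7 to 154 and from 71.2 to 927 CPM, Schwann cell markers from 30.7 to 69.3 and from 33.8 to 143 CPM, proliferation genes from 2.49 to 22 and from 5.46 to 39 CPM, and red blood cell genes from 6.21 to 169 and from 4.71 to 28.5 CPM. Of 7 muscle fibre markers 2 were called higher and 3 lower, of 4 satellite cell markers 1 higher, and of 5 slow fibre and 7 liver markers 0. No marker in these lists was at 0 throughout. Their part in the F-box changes was not tested.

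Role groups are small and are read beside the 52.7% of all genes called in the average over drinks. The 3 members named for mitochondria and iron did not pass the test at 7 d, nor did Fbxw11, listed for the clock (0.02 ± 0.06 on the log2 scale). Fbxl4, which restrains mitophagy by removing BNIP3 and NIX, had -0.14 ± 0.07 (adjusted p = 0.0644, edgeR), Fbxl5, the iron sensor that degrades IRP2, -0.08 ± 0.05, and Fbxo7, which acts in parkin-linked mitophagy, 0.01 ± 0.06. Fbxl4 was called, lower, with DESeq2, with RLE size factors and without the liver-transcript libraries. Among 4 tested cell cycle members Fbxl12 was called, while Fbxw7, which degrades cyclin E and MYC, had 0.02 ± 0.09, Fbxo4, described as a cyclin D1 ligase, -0.18 ± 0.10, and Fbxo5, the EMI1 inhibitor of the anaphase-promoting complex, 0.26 ± 0.20. Of the 4 tested glycoprotein-binding members only Fbxo6 was called: Fbxo44 had 0.02 ± 0.12, Fbxo17 0.23 ± 0.14 and Fbxo27 0.59 ± 0.30. Of the nerve members Fbxo45 was called, and Fbxl20 (-0.08 ± 0.05) and Fbxl16 (0.47 ± 0.21, adjusted p = 0.0551) were not. Of the 7 members listed for sarcomere and muscle growth, Fbxl22, Fbxw8 and Fbxl2 were called higher and Fbxo9, Fbxo11 and Fbxo38 lower, and Fbxo25 had 0.01 ± 0.07. The role lists were drawn up with earlier results of these data known, so their counts of calls are no test of a role.

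From 7 to 14 d, 4 of 48 members were called in the average over drinks, beside 13.5% of all genes (7.35% higher, 6.13% lower). Fbxl22 fell by 1.15 ± 0.26 on the log2 scale (adjusted p = 0.00267, edgeR), to a median of 2.75 CPM (0.659 to 4.96). Fbxo11 rose by 0.34 ± 0.08 (adjusted p = 0.00422), to a median of 70.82 CPM (40.16 to 103.3). Fbxo9 rose by 0.22 ± 0.07 (adjusted p = 0.0348) and Fbxw2 by 0.12 ± 0.04 (adjusted p = 0.0462). The 21 members called at 7 d had the opposite sign here, 13 lower and 8 higher, in a comparison that uses the same RL7 libraries. Without RL14_ML 1, whose values for several members are extreme, 14 were called, without both RL14_ML libraries that stood apart 13 (3 higher, 10 lower, beside 23.4% of all genes), and without RL14_ML 6 alone 2. For the fits without a single library the share of all genes is not given. The counts of 14 and 2 are therefore not read as particular to the members. Without the liver-transcript libraries 1 was called, beside 3.21% of all genes.

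After 14 d of reloading, 4 members still lay below their unloaded level: Fbxw2 (-0.19 ± 0.04, adjusted p = 0.000457), Fbxo38 (-0.22 ± 0.05, adjusted p = 0.00109), Fbxo9 (-0.27 ± 0.07, adjusted p = 0.00316) and Fbxo28 (-0.13 ± 0.05, adjusted p = 0.0372; edgeR, average of 4 drinks). The share of all genes called was 29.7%, with 13.3% lower. Fbxw2 went from a median of 31.01 CPM in HU to 27.45 CPM in RL14 (23.96 to 31.62), and Fbxo9 from 32.43 to 27.01 CPM (18.1 to 32.26). The calls of Fbxw2 and Fbxo9 held with the 5.8S gene in the model (-0.18, adjusted p = 0.000394, and -0.26, adjusted p = 0.00251), with the mitochondrial share (-0.20 and -0.34), after the GC curve (-0.15 and -0.31) and with any 1 of the 32 libraries left out. Fbxo28 lost its call for 9 of the left-out libraries. Without RL14_ML 6, 9 members were called, and without the liver-transcript libraries 2, the latter beside 18.1% of all genes. No share is given without RL14_ML 6, so the count of 9 is not read as particular to the members.

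Among the water groups, reloaded muscle was set against ambulatory muscle. At 7 d 0 of 48 members and 0% of all genes were called, with 4 members at an unadjusted p under 0.05. Fbxo45 was read at 25.01, 24.39, 23.59 and 23.99 CPM in AMB_W and at 20.72, 16.85, 18.98 and 18.01 CPM in RL7_W, a difference of -0.38 ± 0.11 without overlap (adjusted p = 0.419, edgeR). At 14 d 0 members were called beside 0.174% of all genes, with 12 at an unadjusted p under 0.05, and DESeq2 called 0 at either time. Fbxw5 was read at 18.93, 17.83, 17.43 and 15.11 CPM in AMB_W and at 26.18, 28.52, 30.84 and 19.49 CPM in RL14_W, a difference of 0.60 ± 0.20 (adjusted p = 0.132). Without RL14_ML 1 and RL14_ML 6, which lie in neither group but enter the estimate of the spread, 6 members were called in this comparison, beside 8.08% of all genes: Fbxl18, Fbxo42, Fbxo6, Fbxw4, Fbxw5 and Fbxw8, each higher in RL14_W. Against HU_W, 1 member was called in RL14_W, Fbxl6 (from 1.09 ± 0.33 to 2.19 ± 0.33 CPM, SD, n = 4; 1.00 ± 0.34 on the log2 scale, adjusted p = 0.0492), beside 9.72% of all genes. The Fbxl6 call was lost when any 1 of 6 of the 8 libraries was left out, with RLE size factors, with no filter on low counts, with a replicate block and without the liver-transcript libraries. Its log2 fold change was 0.53 after the GC curve (adjusted p = 0.225), 0.47 with the 5.8S gene (adjusted p = 1) and 0.55 with the mitochondrial share in the model (adjusted p = 0.445). RL14_W against RL7_W had 0 calls and 5 members at an unadjusted p under 0.05, beside 0.036% of all genes.

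The drugs were compared with water at each time in 9 comparisons, and the 3 calls came from metformin at 14 d. Fbxw11 was read at 33.56, 37.24, 40.97 and 30.11 CPM in RL14_M and at 41.76, 51.32, 50.97 and 47.83 CPM in RL14_W. All 4 metformin values lay below the water values, at -0.44 ± 0.12 on the log2 scale (adjusted p = 0.0242, edgeR). Fbxw5, at 16.38, 16.85, 16.44 and 14.67 CPM in RL14_M, differed by -0.71 ± 0.20 (adjusted p = 0.0348). Fbxo42, which acts on p53, was read at 10.02, 10.19, 10.21 and 10.28 CPM in RL14_M and at 13.34, 15.56, 17.19 and 13.98 CPM in RL14_W, a difference of -0.56 ± 0.16 (adjusted p = 0.0379). The 3 of 48 members stood beside 5.12% of all genes, of which 3.58% were lower. The metformin values of Fbxw5 and Fbxo42 lay close to those of AMB_W (9.81 to 12.37 CPM for Fbxo42), and the water group was the high one.

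Those 3 calls were not firm. Leaving out 1 library ended the call of Fbxw11 for 4, of Fbxo42 for 6 and of Fbxw5 for 7 of the 8 libraries, and all 3 were lost with no filter on low counts. The 5.8S gene stood at 11.6 to 23 CPM in RL14_M and at 0.294 to 0.998 CPM in RL14_W, and the mitochondrial share at 17.5 to 27.5% and 8.31 to 11.7%; their part in these differences was not tested beyond fits with each as a term, which called 0 members. For RL14_M against RL14_W the shares of all genes were 0% and 0.66% in these fits, and 0.538% with no filter. Without RL14_ML 1 and RL14_ML 6, where 50 members passed the filter, the 9 comparisons gave 23 calls in place of 3. Of these, 10 were in RL14_M (1 higher, 9 lower, beside 13.1% of all genes), 5 in RL14_L (all lower, 6.37%), 7 in RL14_ML (all lower, 6.74%) and 1 in RL7_M (Fbxo22, lower, 3.64%). In this setting the group RL14_ML kept only the libraries RL14_ML 3 and RL14_ML 4. Fbxw5, Fbxw8, Fbxo6 and Fbxo42 were among the calls in all 3 RL14 comparisons, which share the RL14_W libraries.

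In the other 8 comparisons with water 0 members were called. At unadjusted p under 0.05 stood 3 members in HU_M, 0 in HU_L, 3 in HU_ML, 6 in RL7_M, 2 in RL7_L, 4 in RL7_ML, 9 in RL14_L and 1 in RL14_ML. The shares of all genes called were, in the same order, 0%, 0.006%, 0.048%, 0.138%, 0.078%, 0.006%, 0.294% and 0.714%. Over the 9 comparisons DESeq2 gave 4 calls, all lower in RL14_M against RL14_W, beside 9.97% of all genes there. The combination was also set against each single drug at each time, with 0 members called by edgeR or DESeq2 in 6 comparisons. Against metformin 7, 0 and 7 members had an unadjusted p under 0.05 in unloading and at 7 and 14 d, and against leucine 2, 0 and 4. The shares of all genes called were 0.15%, 0% and 0.024% against metformin and 0.096%, 0% and 0% against leucine. In these groups RL14_ML 1 departed from its group, with Fbxw5 read at 49.18 CPM against 14.59 to 19.13 CPM in the other 3 libraries.

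The rest of the SCF system moved in both directions at 7 d. Of 32 listed genes for the scaffold, its modification by Nedd8 and the COP9 signalosome, 10 were called higher and 11 lower in the average over drinks, beside 52.7% of all genes. Cul1, the scaffold, fell by 0.46 ± 0.08 (adjusted p = 2.51e-06, edgeR), while Cul7, the scaffold that pairs with Fbxw8, rose by 0.69 ± 0.12 (adjusted p = 7.19e-06). Skp1a, the adaptor gene, had -0.13 ± 0.06 (adjusted p = 0.0664) and Rbx1 -0.03 ± 0.05 (adjusted p = 0.588). Among F-box genes under other symbols, Ccnf, the cyclin F of dividing cells, rose by 1.86 ± 0.34, Kdm2b by 0.56 ± 0.08 and Btrc by 0.17 ± 0.04, Kdm2a fell by 0.13 ± 0.04, and Skp2 (0.01 ± 0.20) and Lrrc29 were not called. Of the 5 genes left out of the set, Fbxo32 (atrogin-1) fell by 0.88 ± 0.11 and Fbxo30 by 0.21 ± 0.09, Fbxo21 rose by 0.23 ± 0.10, and Fbxo31 and Fbxo40 were not called. The fall of Fbxo32 was larger than that of any member.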

How the data were processed

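The authors deposited raw counts, whole numbers for each Ensembl gene and library without normalization. Tools named in the submitters' processing notes are STAR 2.7.3a, featureCounts 1.6.3 and DESeq2 1.30.0 on GRCm38; the strand setting and annotation release are not given in the sources used here. Per the labels, libraries were stranded with ribosomal RNA removed. Of 55487 identifiers, 55227 matched GENCODE vM21.

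Counts were tested with edgeR 4.0.16 (R 4.3.3): filterByExpr with a minimum count of 10 (16668 genes), TMM scaling and 1 robust quasi-likelihood model of 13 group means (39 residual degrees of freedom), adjusted over all genes. SE is the log2 fold change divided by the root of F. The steps were run on simulated data. For HU_W against AMB_W they recovered 4% of 1.25-fold, 30% of 1.5-fold and 82% of 2-fold changes. For the averaged 7 d comparison these shares were 38%, 88% and 98%. Only genes above a set mean level were changed, so members at low levels are not covered. At each fold size 50 of 16668 genes were changed, while 52.7% of genes were called in the averaged 7 d data. The adjusted p depends on how many genes change, so these shares do not describe recovery in the data. Over 78 pairs of replicates the counts differed beyond sampling noise (chi-square per degree of freedom of at least 6.94). Members, lists, roles and tests were chosen with earlier results of these data known. Named genes were the called members, the 8 highest by RPKM and members by role. DESeq2 1.42.0 was an alternative. The GC curve and the mitochondrial share were alternatives chosen after seeing the data. Libraries of one number were not paired. The floor of 3 counts covers counting error only. 1 tested member is counted in all totals but not reported here by name or drawn.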

Additional observations from a re-analysis of the deposited data

Results flagged for a closer look

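Single libraries lay far from the other 3 of their group for 6 of 130 sets of 4 values (10 members in 13 groups), where about 1 in 20 would be marked by chance. Fbxw5 was read at 49.18 CPM in RL14_ML 1 against 14.59 to 19.13 CPM in the others, Fbxo42 at 25.58 CPM against 9.37 to 11.41 CPM, and Fbxl6 at 3.32 CPM against 0.753 to 1.07 CPM in the same library. Fbxw2 was read at 34.41 CPM in HU_ML 4 against 27.66 to 28.11 CPM and at 26.91 CPM in RL7_ML 1 against 24.27 to 24.72 CPM. Fbxo11 was read at 92.44 CPM in HU_L 5 against 70.74 to 73.61 CPM. HU_ML 4 and HU_L 5 are libraries with liver transcripts.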

How the results depend on the processing

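With the 5.8S gene in the model, the counts of called members were 2 (17 without it) over the 13 groups, 0 (3) for drugs, 0 (21) at 7 d averaged, 0 (29) within drinks, 0 (4) from 7 to 14 d, 0 (1) in RL7_W against HU_W, 0 (21) in the SCF list and 0 (7) among other F-box genes. With the mitochondrial share they were 3, 0, 2, 2 and 0 in the same first 5, 15 (4) in RL14 against HU, 5 in the SCF list and 4 among other F-box genes. After the GC curve they were 8 over the 13 groups, 1 for drugs, 13 within drinks and 3 (1) for drug-treated HU against AMB_W. With no filter on low counts they were 0 for drugs, 18 within drinks, 2 from 7 to 14 d, 0 in RL7_W against HU_W, 0 for drug-treated HU and 4 among other F-box genes. DESeq2 gave 2 in RL7_W against HU_W and 3 for drug-treated HU, and a fit of only 2 groups gave 2 in RL7_W against HU_W. Without the liver-transcript libraries they were 7 over the 13 groups, 1 for drugs, 12 within drinks, 1 from 7 to 14 d, 2 in RL14 against HU, 0 in RL7_W against HU_W and 0 for drug-treated HU. Without RL14_ML 1 and RL14_ML 6 they were 23 for drugs, 13 from 7 to 14 d, 6 for reloaded water groups against AMB_W and 4 for drug-treated HU. The share of all genes called moved with these settings too. At 7 d averaged it was 52.7% in the main fit, 2.48% with the 5.8S gene and 19.3% with the mitochondrial share. It was 45.9% after the GC curve, 22.6% with no filter and 39.3% without the liver-transcript libraries. In RL7_W against HU_W it was 4.88% in the main fit, 2.64% with the 5.8S gene, 1.26% with no filter and 1.46% without the liver-transcript libraries. In RL14 against HU it was 29.7% in the main fit and 38.8% with the mitochondrial share. From 7 to 14 d the main 13.5% became 0% with the 5.8S gene, 1.3% with the mitochondrial share and 3.52% with no filter. Counts without such a share are not read as particular to the members. The causes were not tested.

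Leaving out each library in turn gave 14 to 20 over the 13 groups, 0 to 25 for drugs, 18 to 23 at 7 d averaged, 16 to 29 within drinks, 2 to 14 from 7 to 14 d, 3 to 9 in RL14 against HU, 0 to 1 in RL7_W against HU_W, for drug-treated HU and for the combination against single drugs, 0 to 0 in HU_W against AMB_W, for the reloaded water groups and for the interaction, 19 to 26 in the SCF list and 5 to 7 among other F-box genes. For these fits the share of all genes is not given, so the ranges are not read as particular to the members. With a replicate block, 1 call remained in the drug comparisons and 20 at 7 d averaged, the latter beside 52.4% of all genes. Same-numbered libraries did not deviate together (median r of 0.013 over 219 pairs), so the number was not taken as a pairing.

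Log2 fold changes turned sign with the mitochondrial share for Fbxo42 (0.0107) and Fbxw5 (0.0241) in RL14_M against RL14_W, for Fbxw4 (-0.0777), Fbxw5 (-0.023) and Fbxw8 (-0.13) from HU_M to RL7_M, for Fbxo11 (0.18), Fbxo6 (-0.0417) and Fbxw5 (-0.18) from HU_L to RL7_L, for Fbxl12 (-0.0001), Fbxl18 (-0.075), Fbxo11 (0.0027), Fbxo8 (0.042), Fbxw4 (-0.0588), Fbxw5 (-0.0324) and Fbxw8 (-0.18) at 7 d averaged, and for Fbxo11 (-0.18) and Fbxo9 (-0.13) from 7 to 14 d. They did so with the 5.8S gene for Fbxw8 (-0.0501) from HU_M to RL7_M, Fbxo36 (0.21) and Fbxw5 (-0.0289) from HU_L to RL7_L, Fbxl18 (-0.0958), Fbxo36 (0.24), Fbxw8 (-0.19) and Fbxw9 (-0.0966) at 7 d averaged, and Fbxo9 (-0.0595) and Fbxw2 (-0.0191) from 7 to 14 d. After the GC curve Fbxl18 (-0.0125), Fbxo8 (0.0429) and Fbxw8 (-0.0622) turned sign at 7 d averaged. With RLE scaling, no filter, the block, DESeq2 or left-out liver-transcript libraries, 0 of 63 single calls turned sign.

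Of the 21 calls at 7 d averaged, 11 held with each of 6 settings of scaling, filter, block, tool or left-out libraries, and 6 also after the GC curve: Fbxl15, Fbxo11, Fbxo38, Fbxo45, Fbxo9 and Fbxw2. This tally leaves out the 5.8S gene and the mitochondrial share. With the 5.8S gene in the model 0 of the 21 calls held, and with the mitochondrial share 1, that of Fbxw2.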
